A study of Mus musculus with 30 samples.

Results

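The livers of mice on a standard or a high-fat diet were compared for 9 genes that carry organic ions into and out of hepatocytes. Of these, 6 encode uptake carriers (Slco1a1, Slco1a4, Slco1b2, Slco2b1, Slc22a5 and Slc22a7) and 3 encode efflux pumps (Abcc2, Abcc3 and Abcg2). They were taken by symbol from the 57180 gene rows of the count table, and all 9 were measured well enough to be tested in every fit. The prevention study ran for 10 weeks with daily gavage, of water in NC (standard diet) and MC (high-fat diet), or of UB-NPs at 60 mg/kg/day in UB (high-fat diet). In the treatment study, the NFD controls had standard diet and water and are labelled 18 weeks, while the titles of HFD and Uro give 8 weeks. HFD and Uro mice were first made obese by a high-fat diet over 10 weeks and kept it for 8 weeks more, with water for the HFD group or UB-NPs at 60 mg/kg/day for the Uro group. The labels do not spell out UB-NPs, and they give neither strain nor sex. Each group had 5 liver libraries out of 10 mice, and each library was treated as 1 mouse without a label that says so. Therefore the p-values measure the spread between libraries, which may be partly technical.

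Hepatocytes take bile acids, hormone conjugates, carnitine and drugs from the blood across the sinusoidal membrane and pump conjugated products across the canalicular membrane into bile or back into the blood. Carriers of the organic anion transporting polypeptide family (gene names Slco) and of the organic ion family (Slc22) do much of the uptake, and ATP-driven pumps (Abc) do the export. In mouse liver several of these genes answer to nuclear receptors that sense bile acids, fatty acids and foreign compounds, and Slco1a1 is higher in males under the pattern of growth hormone release.

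Genes Slco1a1, Slco1a4 and Slco1b2 lie close together on chromosome 6, and they are shown here because these neighbours gave different patterns across the groups. In GRCm39, Slco1a1 is at chr6:141853007-141892690 on the minus strand, Slco1a4 at chr6:141751165-141802036 on the minus strand and Slco1b2 at chr6:141575179-141633546 on the plus strand. The other protein-coding members are Slco2b1 at chr7:99306783-99360547, Slc22a5 at chr11:53753315-53782703, Slc22a7 at chr17:46743044-46749407, Abcc2 at chr19:43770631-43829179, Abcc3 at chr11:94233874-94283823 and Abcg2 at chr6:58561505-58672661. RefSeq promoter windows of build GRCm38.p6, running from 250 bases before to 50 bases after the start, were available for 7 of the 9 genes. They were searched on both strands for 5 motifs, and every match is in capitals.
Slco1a1 promoter, chr6:141946913-141947212, minus strand: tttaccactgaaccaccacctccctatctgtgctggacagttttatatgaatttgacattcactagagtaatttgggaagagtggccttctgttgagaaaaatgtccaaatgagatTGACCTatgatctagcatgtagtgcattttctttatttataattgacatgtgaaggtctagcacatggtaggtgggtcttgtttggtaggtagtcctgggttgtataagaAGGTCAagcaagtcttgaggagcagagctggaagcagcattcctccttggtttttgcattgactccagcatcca
Slco1a4 promoter, chr6:141856171-141856470, minus strand: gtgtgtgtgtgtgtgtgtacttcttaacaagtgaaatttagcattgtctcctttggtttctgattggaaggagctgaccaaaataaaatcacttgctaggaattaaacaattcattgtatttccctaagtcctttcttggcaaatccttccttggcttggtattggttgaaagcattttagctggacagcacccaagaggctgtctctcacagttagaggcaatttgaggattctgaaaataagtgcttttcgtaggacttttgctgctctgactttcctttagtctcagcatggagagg
Slco1b2 promoter, chr6:141629268-141629567, plus strand: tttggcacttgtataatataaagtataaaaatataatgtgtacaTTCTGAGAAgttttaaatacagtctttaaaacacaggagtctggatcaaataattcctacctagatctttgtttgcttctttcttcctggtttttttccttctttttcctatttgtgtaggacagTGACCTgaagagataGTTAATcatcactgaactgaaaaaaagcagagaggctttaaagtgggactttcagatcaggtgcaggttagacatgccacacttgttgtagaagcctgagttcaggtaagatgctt
The nuclear receptor half-site AGGTCA, which 16.3% of 32851 promoter windows of this length held, was found 2 times in the Slco1a1 window and 1 time in that of Slco1b2. The Slco1b2 window also held the hepatocyte nuclear factor 1 half-site GTTAAT, present in 7.10% of windows, and the STAT palindrome TTCNNNGAA, present in 8.30%. The Slco1a4 window held none of these, nor the antioxidant core TGACNNNGC (12.4% of windows) or the dioxin core GCGTG (32.4%). A match is a description of the letters in the window and not a bound site.

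Per unit of length, Slco1b2, which takes up bilirubin and many drugs and is the mouse counterpart of the human OATP1B carriers, held the largest share of the transcripts of the 9 genes in NC, at 27.6 ± 4.77% of their summed TPM (SD, n = 5). In Uro its share was 21.9 ± 6.27%, beside 24.7 ± 5.79% for Abcc3, which pumps conjugates back into the blood, and 22.5 ± 6.03% for Abcc2, the canalicular pump for bilirubin glucuronides. Slc22a7, an organic anion carrier, held the smallest mean share in all 6 groups, and in HFD its 0.699 ± 0.222% came next to 0.987 ± 0.403% for Slco1a1. The 3 efflux genes together made up 35.4 ± 8.55% of the summed TPM in NC, 49.4 ± 2.68% in MC and 46.8 ± 4.39% in UB. In the treatment study they made up 45.3 ± 5.31% in NFD, 53.1 ± 2.81% in HFD and 62.4 ± 7.27% in Uro. Slco1a1 had 0.726 ± 0.219 times the TPM of its close relative Slco1a4 in NC, 3.96 ± 2.54 times in MC, and 1.79 ± 0.703 times in UB. The same ratio was 0.999 ± 0.447 in NFD, 0.127 ± 0.0390 in HFD and 1.25 ± 0.907 in Uro. How reads shared by these close paralogs were counted is not stated, so the split between them is uncertain.

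**Figure D1:**
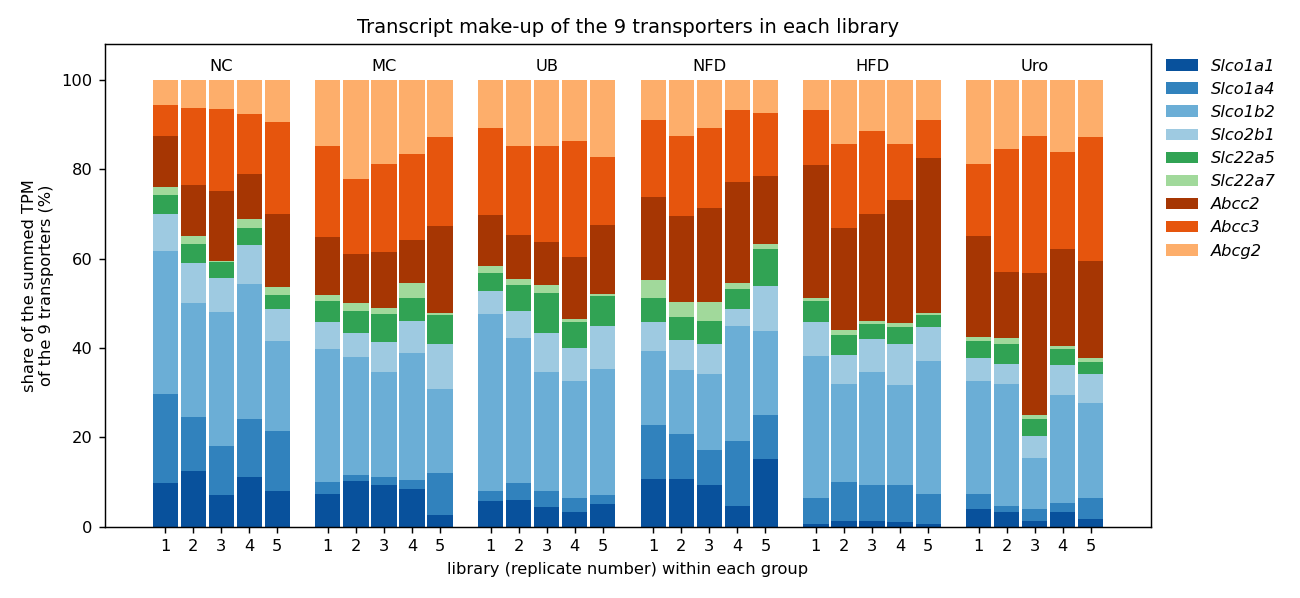
Bars show the share of the summed TPM of the 9 transporters (percent, vertical axis) held by each gene in each of the 30 libraries, by group (horizontal axis, replicate number). Slco1a1 (darkest blue) is a thin band in all 5 HFD libraries, and the orange efflux genes take 62.4% on average in Uro.

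Expression below is in CPM, counts brought to a common library size by TMM over all 30 libraries, and a change was called at a Benjamini-Hochberg adjusted p under 0.05 in edgeR's quasi-likelihood (QL) test over all genes. When the 6 groups were ordered by mean CPM for each gene, the libraries of neighbouring groups overlapped in 44 of 45 pairs. The exception was Abcc3, whose Uro libraries all lay above those of UB, the next group. Neighbours in such an order are close by construction, and the same count was not made over all genes. Abcc2, Abcc3, Slco1b2, Slco2b1 and Abcg2 had their highest mean in Uro, Slco1a1, Slco1a4 and Slc22a7 in NFD, and Slc22a5 in MC. NC had the lowest mean for Abcc2, Abcc3, Slco1b2, Slco2b1, Slc22a5 and Abcg2, HFD for Slco1a1 and Slc22a7, and UB for Slco1a4.

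**Figure D2:**
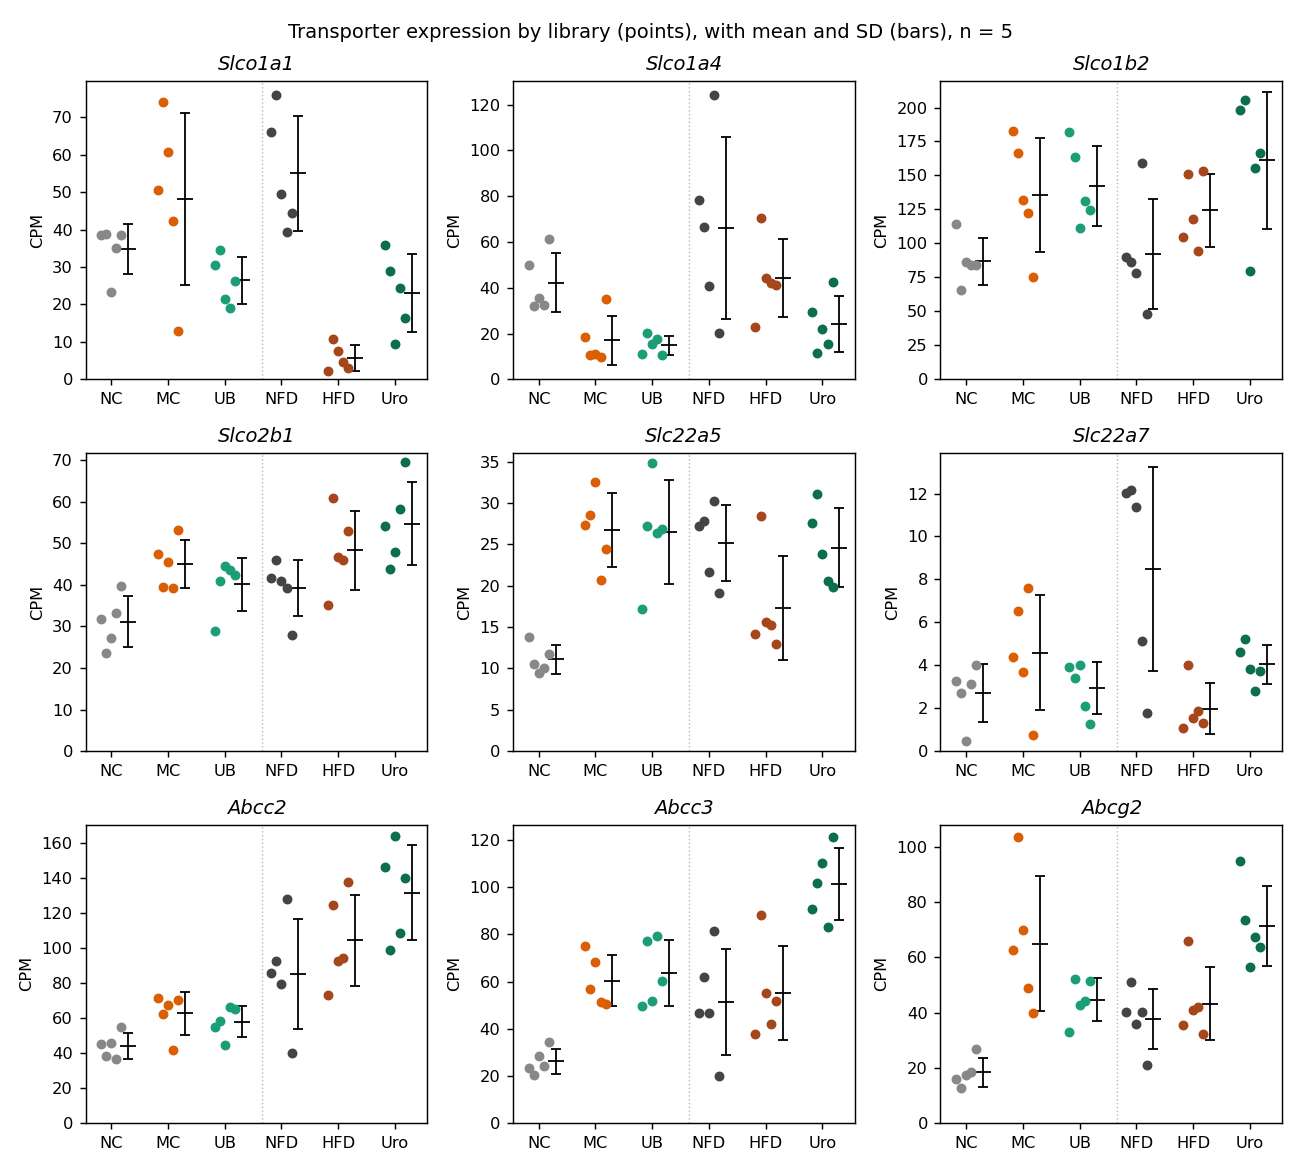
Points are CPM values (vertical axis, from 0) of the 5 libraries of each group (horizontal axis), and bars are mean and SD. HFD libraries of Slco1a1 run from 2.35 to 10.7 CPM against 39.3 to 76.0 in NFD, and NC libraries of Abcg2 run from 12.8 to 26.8 CPM against 40.0 to 104 in MC.

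The libraries differed in a way that moves with several of these results. Mitochondrial transcripts were counted here as 37 genes named mt- and 7 nuclear copies of mitochondrial genes. The same set was used for the covariate and for the fits without mitochondrial genes. The 7 copies summed to a mean of 35969 CPM in Uro and 297543 CPM in NFD, the lowest and the highest group. Mitochondrial transcripts so counted took a mean of 67.2% of the counts in NC, 50.9% in MC and 45.0% in UB. The treatment study had 68.4% in NFD, 66.1% in HFD and 18.8% in Uro. Total counts were 17.0 to 24.3 M (mega) per library, but all other genes shared only 3.14 to 19.7 M. MC replicate 5 stood apart in its group with a mitochondrial share of 69.1%. Uro libraries, at 14.1 to 21.6%, did not overlap HFD libraries, at 59.1 to 82.3%, so the UB-NP group and this share cannot be told apart in the treatment study. In whole liver, fewer cells of a type and less RNA per cell cannot be told apart either.

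After 10 weeks of high-fat diet, the carnitine carrier Slc22a5, the blood-facing pump Abcc3 and the canalicular pump Abcg2 rose in MC over NC, and the uptake carrier Slco1a4 was lower. Slco1b2 and Slco2b1, a carrier of steroid sulfates, rose less. In all, 6 of the 9 genes were called (5 higher and 1 lower), against 12.2% of all 13498 genes tested, and the median log2 fold change of the 9 was 0.64 against 0.03 for all genes.

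Slc22a5 stood at 13.8, 10.5, 9.40, 10.0 and 11.8 CPM in the NC libraries and at 27.3, 28.5, 32.6, 20.7 and 24.4 CPM in the MC libraries. Every MC library lay above every NC library, a log2 fold change of 1.26 ± 0.19 (SE, edgeR QL adjusted p = 0.000255). Abcc3 was at 23.3, 20.5, 28.3, 24.3 and 34.2 CPM in NC and 74.9, 57.0, 68.4, 51.2 and 50.6 CPM in MC, again with no overlap. Its log2 fold change was 1.21 ± 0.18 (edgeR QL adjusted p = 0.000285). Abcg2, which exports sulfate conjugates, rose from 16.0, 12.8, 17.3, 18.4 and 26.8 CPM in NC to 62.6, 104, 69.8, 48.8 and 40.0 CPM in MC. The groups did not overlap and the change was 1.82 ± 0.23 on the log2 scale (edgeR QL adjusted p = 3.77e-05), the largest of the 9 in this comparison.

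Slco1a4, an uptake carrier for cardiac glycosides and steroid conjugates, was at 50.0, 32.0, 35.4, 32.3 and 61.2 CPM in NC and 18.5, 10.5, 10.9, 9.95 and 34.9 CPM in MC. The MC libraries were lower except replicate 5, whose value lay within the NC range, and the log2 fold change was -1.32 ± 0.33 (edgeR QL adjusted p = 0.0146). Slco1b2 went from 86.9 ± 17.3 to 136 ± 41.8 CPM (SD, n = 5 each), and Slco2b1 from 31.1 ± 6.12 to 45.0 ± 5.86 CPM, both with overlapping libraries. Their log2 fold changes were 0.64 ± 0.21 and 0.53 ± 0.17 (edgeR QL adjusted p = 0.0461 and 0.0408). Abcc2 (0.51 ± 0.17, adjusted p = 0.0570 by edgeR), Slco1a1 (0.46 ± 0.31, adjusted p = 0.372 by edgeR) and Slc22a7 (0.75 ± 0.50, adjusted p = 0.361 by edgeR) were not called.

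Slco1b2 and Slco2b1 passed narrowly. The Slco1b2 call was lost without any 1 of NC replicates 2 to 5, MC replicates 1 to 4 or UB replicates 4 and 5 (edgeR QL adjusted p = 0.0527 to 0.131), and that of Slco2b1 without NC replicate 1, 2, 3 or 4 or MC replicate 1, 2, 3 or 5 (edgeR QL adjusted p = 0.0503 to 0.123). Abcc2 was called without NC replicate 5 or MC replicate 4 (edgeR QL adjusted p = 0.0236 and 0.0191), and Slco1a1 without MC replicate 5, at 0.71 on the log2 scale (edgeR QL adjusted p = 0.0260). With the mitochondrial share as a covariate, Slc22a5, Abcc3 and Abcg2 stayed called, while Slco1a4, Slco1b2 and Slco2b1 did not (edgeR QL adjusted p = 0.183, 0.286 and 0.168). Their log2 fold changes were then -0.90, 0.58 and 0.54, so those of Slco1b2 and Slco2b1 were about as large as before. That fit called 389 of all 13498 genes, against 1645 without the covariate.

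**Figure D3:**
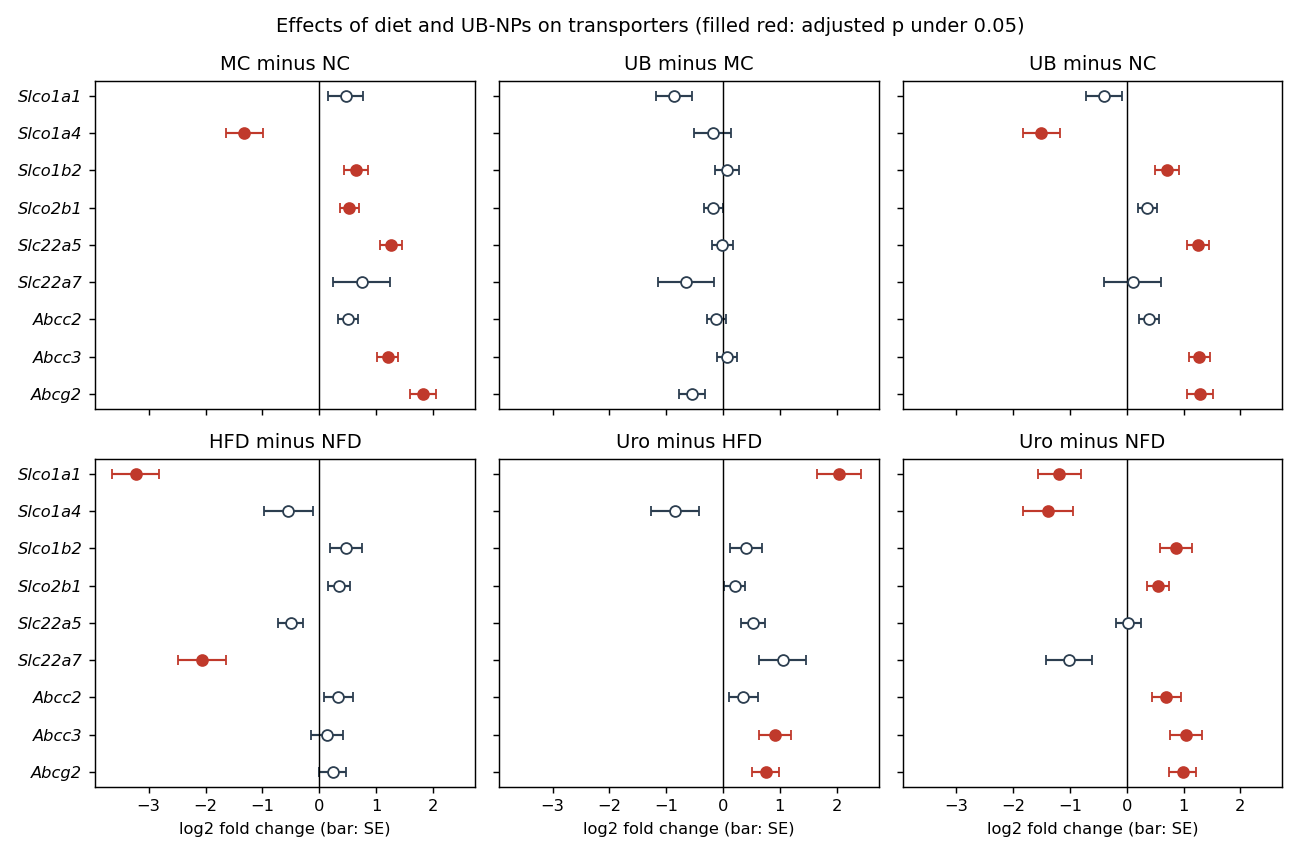
Each panel gives the log2 fold change (horizontal axis) of the 9 transporters (vertical axis) in 1 comparison, with SE bars and filled red points where the adjusted p was under 0.05. Red points are at 1.26, 1.21 and 1.82 for Slc22a5, Abcc3 and Abcg2 in MC minus NC, and at -3.23 and 2.04 for Slco1a1 in HFD minus NFD and Uro minus HFD.

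UB-NPs given alongside the diet changed none of the 9 genes by the test. In UB minus MC, edgeR called 0 of the 9, against 0.607% of all genes tested. Those were 82 genes, and 20 to 109 when 1 library was left out. The DESeq2 test also called 0 of the 9, against 228 of all 13498 genes. An unadjusted edgeR p under 0.05 was found for 2 of the 9, Slco1a1 and Abcg2, and for 1446 of all 13498 genes. Slco1a1 was at 50.7, 74.2, 60.7, 42.4 and 12.8 CPM in MC and 30.6, 34.5, 21.5, 19.2 and 26.4 CPM in UB, which overlap through MC replicate 5, the lowest of its group. The log2 fold change was -0.87 ± 0.31 (edgeR QL adjusted p = 0.293). Without MC replicate 5 it was -1.11 and called (edgeR QL adjusted p = 0.00720). Abcg2 was at 32.8, 52.1, 42.6, 44.3 and 51.4 CPM in UB, and its log2 fold change of -0.54 ± 0.22 from MC was not called (edgeR QL adjusted p = 0.361). For Slc22a5, Abcc3, Abcc2, Slco1b2, Slco1a4 and Slco2b1 the log2 fold changes lay between -0.18 and 0.07, and that of Slc22a7 was -0.65 ± 0.49.

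Compared with NC, the UB livers had higher Slc22a5, Abcc3, Abcg2 and Slco1b2 and lower Slco1a4. That is 5 of 9 genes called (4 higher and 1 lower), against 7.80% of all genes. UB minus NC shares its UB libraries with the comparison above and its NC libraries with MC minus NC. Slc22a5 in UB, at 17.2, 27.2, 34.8, 26.4 and 26.9 CPM, lay above every NC library, with a log2 fold change of 1.25 ± 0.19 (edgeR QL adjusted p = 0.000280). Abcc3, at 49.6, 77.2, 51.6, 79.5 and 60.1 CPM in UB, and Abcg2 were also above every NC library, by 1.28 ± 0.18 and 1.28 ± 0.23 on the log2 scale (edgeR QL adjusted p = 0.000189 and 0.00172). Slco1a4 was at 10.9, 20.2, 15.2, 17.5 and 10.7 CPM in UB, below every NC library, a log2 fold change of -1.50 ± 0.33 (edgeR QL adjusted p = 0.00976).

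Slco1b2 passed in UB minus NC at 0.71 ± 0.21 (edgeR QL adjusted p = 0.0381) but not without NC replicate 2, 3 or 4 or UB replicate 1, 2, 4 or 5 (edgeR QL adjusted p = 0.0562 to 0.112). Slco2b1 (0.36 ± 0.17, adjusted p = 0.197 by edgeR), Abcc2 (0.39 ± 0.17, adjusted p = 0.175 by edgeR), Slco1a1 (-0.40 ± 0.31, adjusted p = 0.486 by edgeR) and Slc22a7 (0.10 ± 0.50, adjusted p = 0.934 by edgeR) were not called. With the mitochondrial share as a covariate none of the 9 was called (edgeR QL adjusted p = 0.1003 for Slc22a5 and 0.143 for Abcc3). That fit called 71 of all 13498 genes, against 1053 without the covariate. The log2 fold changes were then 1.13 for Slc22a5, 0.93 for Abcc3, 0.99 for Abcg2, 0.64 for Slco1b2 and -0.75 for Slco1a4. The share itself was lower in UB than in NC (exact permutation adjusted p = 0.0159). UB libraries, at 41.8 to 52.0%, did not overlap NC libraries, at 61.5 to 73.4%, so group and share cannot be told apart here either. On the TPM scale, where the median gene shifted by 0.93 on the log2 scale, the split was 6 higher and 0 lower. Of all 13498 genes, 7612 were called there.

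In obese mice on the long high-fat diet, the pattern was another one. Slco1a1 and Slc22a7 fell in HFD below NFD, and the efflux pumps did not change by the test. The 2 calls, both lower, compare with 13.2% of all 14163 genes tested, and the median log2 fold change of the 9 was 0.13.

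Slco1a1 was at 66.1, 76.0, 49.5, 39.3 and 44.3 CPM in the NFD libraries and at 2.35, 10.7, 7.70, 4.59 and 2.90 CPM in the HFD libraries. The groups did not overlap, the mean was 9.75 times lower, and the log2 fold change was -3.23 ± 0.41 (edgeR QL adjusted p = 9.38e-05). Slc22a7 was at 12.0, 12.2, 11.4, 5.14 and 1.79 CPM in NFD and 1.08, 4.02, 1.56, 1.86 and 1.30 CPM in HFD. Here NFD replicate 5 lay within the HFD range, and the log2 fold change was -2.07 ± 0.42 (edgeR QL adjusted p = 0.00293). Both stayed called when any 1 library was left out (log2 fold change -3.58 to -3.05 for Slco1a1 and -2.50 to -1.90 for Slc22a7) and with a covariate for mitochondrial share. On the TPM scale Slc22a7 lost its call (-1.41, limma adjusted p = 0.112), while Slco1a1 stayed called. The mitochondrial share differed by -2.29 points between HFD and NFD (exact permutation adjusted p = 0.730).

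Slc22a5 was at 27.2, 27.8, 21.7, 30.2 and 19.1 CPM in NFD and 14.2, 28.5, 15.7, 15.2 and 13.0 CPM in HFD, where replicate 2 was high and the other 4 libraries lay below every NFD library. Its log2 fold change of -0.50 ± 0.22 was not called (edgeR QL adjusted p = 0.131). Without HFD replicate 2 it was -0.75 and called (edgeR QL adjusted p = 0.0139). Slco1a4 (-0.54 ± 0.43, adjusted p = 0.436 by edgeR), Slco1b2 (0.47 ± 0.28, adjusted p = 0.284 by edgeR) and Slco2b1 (0.34 ± 0.19, adjusted p = 0.246 by edgeR) were not called. The efflux genes Abcc2 (0.34 ± 0.25), Abcc3 (0.13 ± 0.28) and Abcg2 (0.23 ± 0.23) had edgeR QL adjusted p = 0.411, 0.797 and 0.543.

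In obese mice given UB-NPs, Slco1a1 rose, and so did the efflux pumps Abcc3 and Abcg2. Of the 9 genes 3 were called, all higher in Uro than in HFD, against 27.1% of all genes. Calls were thus about as frequent among the 9 as among all genes. The median log2 fold change of the 9 was 0.53 against -0.08 for all genes. Slco1a1 was at 36.0, 29.0, 9.39, 24.4 and 16.4 CPM in Uro. All Uro libraries but replicate 3 lay above every HFD library, and the log2 fold change was 2.04 ± 0.39 (edgeR QL adjusted p = 0.000839).

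Abcc3 was at 37.7, 88.3, 55.3, 41.9 and 51.7 CPM in HFD and 90.6, 102, 110.4, 83.1 and 122 CPM in Uro, with HFD replicate 2 alone reaching into the Uro range. Its log2 fold change was 0.91 ± 0.28 (edgeR QL adjusted p = 0.0204). Abcg2 was at 35.4, 65.8, 40.8, 41.9 and 32.1 CPM in HFD and 94.8, 73.5, 56.5, 67.5 and 63.8 CPM in Uro, and HFD replicate 2 again overlapped. The change was 0.75 ± 0.23 on the log2 scale (edgeR QL adjusted p = 0.0195). Slc22a7 (1.05 ± 0.41, adjusted p = 0.0640 by edgeR), Slc22a5 (0.53 ± 0.22, adjusted p = 0.0735 by edgeR) and Slco1a4 (-0.84 ± 0.43, adjusted p = 0.162 by edgeR) were not called, nor were Slco1b2 (0.40 ± 0.28), Abcc2 (0.36 ± 0.25) and Slco2b1 (0.20 ± 0.19).

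Several of these calls turned on 1 library. Abcc3 lost its call without HFD replicate 1 or 4 or Uro replicate 5 (edgeR QL adjusted p = 0.0578, 0.0555 and 0.0517), and Abcg2 without HFD replicate 1 or 5 or Uro replicate 1 (edgeR QL adjusted p = 0.0525, 0.0575 and 0.0639). Without HFD replicate 2, Slc22a5 (0.78) and Slc22a7 (1.49) were also called higher (edgeR QL adjusted p = 0.00545 and 0.0112), and Slc22a7 was called without NFD replicate 5 too (edgeR QL adjusted p = 0.0159). With all libraries kept, the DESeq2 test called Slc22a7 higher (1.03, DESeq2 adjusted p = 0.0466). A replicate block called it too (1.13, edgeR QL adjusted p = 0.0336), along with Slc22a5 (0.56, edgeR QL adjusted p = 0.0407). On the TPM scale 8 of the 9 were called higher, Slc22a7 among them (limma adjusted p = 0.00353), with 7134 of all 14163 genes called. With the mitochondrial share as a covariate none of the 9 was called, and only 2 of all 14163 genes were, against 3836 without it. Group and share do not overlap here, so this fit cannot separate them. In it Slco1a1 was at 0.61 on the log2 scale (edgeR QL adjusted p = 0.863), and Abcc3 and Abcg2 turned to -0.43 and -0.23.

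Against NFD, Uro livers had higher Abcc2, Abcc3, Abcg2, Slco1b2 and Slco2b1 and lower Slco1a1 and Slco1a4. That is 7 of 9 genes called (5 higher and 2 lower), against 28.4% of all genes, in a comparison that shares its libraries with the others of the treatment study. Slco1a1 in Uro lay below every NFD library (log2 fold change -1.19 ± 0.38, edgeR QL adjusted p = 0.0238). Abcc3 and Abcg2 lay above every NFD library, by 1.04 ± 0.28 and 0.98 ± 0.23 (edgeR QL adjusted p = 0.00863 and 0.00310).

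Slco1a4 was at 78.6, 66.7, 40.9, 124 and 20.2 CPM in NFD and 29.3, 11.5, 22.0, 15.4 and 42.6 CPM in Uro, with overlap, and differed by -1.39 ± 0.43 (edgeR QL adjusted p = 0.0244). Slco1b2 at 0.87 ± 0.28, Abcc2 at 0.69 ± 0.25 and Slco2b1 at 0.55 ± 0.19 were called with overlapping libraries (edgeR QL adjusted p = 0.0247, 0.0456 and 0.0355). Slc22a7 (-1.02 ± 0.40, adjusted p = 0.0620 by edgeR) and Slc22a5 (0.03 ± 0.22, adjusted p = 0.940 by edgeR) were not.

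In Uro minus NFD, only Abcc3 and Abcg2 of the 7 stayed called whichever library was left out. Abcc2 lost its call without any NFD replicate except 4, without HFD replicate 4 or without Uro replicate 1, 3 or 5 (edgeR QL adjusted p = 0.0522 to 0.111). Slco1b2 lost it without NFD replicate 3 or Uro replicate 1 or 2 (0.0549 to 0.0608), Slco2b1 without NFD replicate 4 or 5 or Uro replicate 1, 4 or 5 (0.0502 to 0.111), Slco1a4 without NFD replicate 4 or Uro replicate 3 or 4 (0.0579 to 0.0819), and Slco1a1 without NFD replicate 1 or 2 or Uro replicate 3 or 5 (0.0501 to 0.0633). Slc22a7 gained a call without NFD replicate 4 or 5 or HFD replicate 2 (0.0492, 0.00547 and 0.0407). With a covariate for the mitochondrial share, 0 of 9 genes and 0 of all genes were called. The log2 fold changes were then -2.75 for Slco1a1 and -2.56 for Slco1a4, larger in size than without it, and 0.70 for Slco1b2, while those of the other called genes turned negative. On the TPM scale, where the median gene shifted by 1.34 on the log2 scale, Slco1a1 and Slco1a4 turned to 0.19 and 0.04. The split there was 6 higher and 0 lower, with 10644 of all 14163 genes called. Without the filter on low counts the split was 5 and 0, with 4076 of 25523 genes called.

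The studies could be set against each other with interaction terms, which test whether the effect in the treatment study differs from that in the prevention study. Feeding time, obesity and the study itself cannot be told apart in these contrasts. For diet, the effect on Slco1a1, Slc22a7, Slc22a5, Abcg2 and Abcc3 was lower in the treatment study, 5 of 9 genes called against 5.42% of all 14784 genes. The differences were -3.74 ± 0.56, -2.86 ± 0.71, -1.81 ± 0.29, -1.63 ± 0.34 and -1.11 ± 0.35 on the log2 scale (edgeR QL adjusted p = 0.000959, 0.0157, 0.000959, 0.00450 and 0.0491). The standard-diet groups were also higher in the treatment study. Mean CPM in NC and NFD was 34.9 and 55.0 for Slco1a1, 2.72 and 8.50 for Slc22a7, and 11.1 and 25.2 for Slc22a5. It was 18.3 and 37.7 for Abcg2 and 26.1 and 51.4 for Abcc3, and the part of this in the interaction was not tested. The Abcc3 difference was no longer called in most fits that left out 1 library (edgeR QL adjusted p up to 0.0935).

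For UB-NPs, Slco1a1 and Abcg2 had a higher effect in the treatment study, 2 of 9 genes called against 12.3% of all genes. Slco1a1 differed by 2.88 ± 0.55 and Abcg2 by 1.26 ± 0.33 on the log2 scale (edgeR QL adjusted p = 0.000780 and 0.00918). Without HFD replicate 2, Slc22a5, Abcc3 and Slc22a7 were called as well (0.77, 1.05 and 2.11, edgeR QL adjusted p = 0.0484, 0.0314 and 0.0412), and Slc22a7 also without MC replicate 5 (1.94, edgeR QL adjusted p = 0.0337). With the mitochondrial share as a covariate none of the 9 and none of all genes was called, with Slco1a1 at 1.78 and Abcg2 at 0.56.

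**Figure D4:**
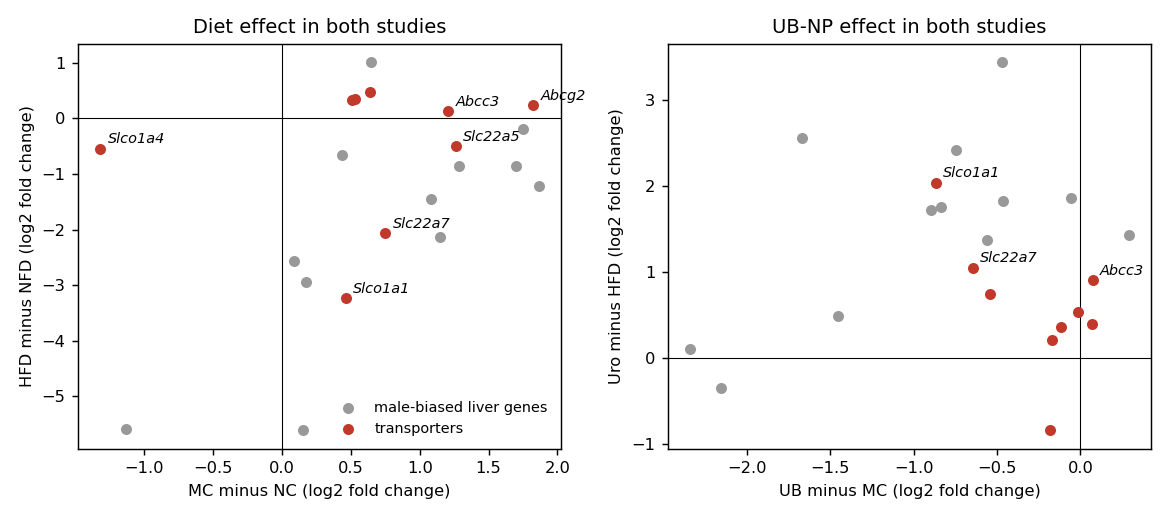
Points are log2 fold changes in the prevention study (horizontal axis) and the treatment study (vertical axis) for the diet (left) and UB-NPs (right), with transporters in red and 12 male-biased liver genes in grey. Slco1a1 lies at 0.46 and -3.23 for diet and at -0.87 and 2.04 for UB-NPs.

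The lists of other genes that follow are to be read against the share of all genes called, which was 12.2% in MC minus NC, 0.607% in UB minus MC, 7.80% in UB minus NC, 13.2% in HFD minus NFD, 27.1% in Uro minus HFD and 28.4% in Uro minus NFD. Liver genes that are higher in male mice were counted beside Slco1a1, which shares that bias. Of 12 such genes, 5 rose and 0 fell in MC minus NC, and 0 rose and 9 fell in HFD minus NFD. In Uro minus HFD 8 rose and 0 fell, in UB minus MC 0 rose and 2 fell, in UB minus NC 1 rose and 3 fell, and in Uro minus NFD 4 rose and 4 fell. The diet interaction was lower for 11 of the 12 and the UB-NP interaction higher for 9. Cyp4a12b, a fatty acid hydroxylase, was at 81.7 ± 35.5 CPM in NFD, 43.9 ± 10.8 in HFD and 142 ± 9.33 in Uro, -0.86 ± 0.27 and 1.72 ± 0.28 on the log2 scale (edgeR QL adjusted p = 0.0400 and 9.36e-05). C6, a complement component, differed by -0.65 ± 0.20 and 1.38 ± 0.20 in the same comparisons (edgeR QL adjusted p = 0.0333 and 3.48e-05), while Mup20, a major urinary protein gene, was at 1.01 ± 0.36 in HFD minus NFD (edgeR QL adjusted p = 0.0657). Of 11 female-biased genes only 2 were expressed enough to be tested in the prevention study and 3 in the treatment study. Stat5b, the growth hormone signal transducer, was lower in Uro than in HFD (-0.46 ± 0.16, adjusted p = 0.0381 by edgeR), and Bcl6, its antagonist on sex-biased genes, was lower in UB than in NC (-2.11 ± 0.43, adjusted p = 0.00622 by edgeR).

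Among 23 other uptake carriers, of which 17 were tested in the prevention study and 20 in the treatment study, 6 rose and 0 fell in MC minus NC and 3 rose and 2 fell in Uro minus HFD. The counts were 0 and 0 in UB minus MC, 1 and 0 in UB minus NC, 2 and 2 in HFD minus NFD, and 4 and 2 in Uro minus NFD. Changes among the 20 tested in Uro minus HFD were no more frequent than among all genes. Slc10a1, the sodium-dependent bile acid carrier NTCP, fell in HFD and rose in Uro like Slco1a1, with -1.16 ± 0.22 and 2.42 ± 0.23 (edgeR QL adjusted p = 0.00166 and 1.02e-06). Unlike Slco1a1 it ended above NFD in Uro (1.25 ± 0.22, adjusted p = 0.000236 by edgeR).

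Among 15 other efflux genes, 13 of them tested in the prevention study, 5 rose in MC minus NC, 0 in UB minus MC and 4 in UB minus NC, with 0 falling in each. In the treatment study 5 rose and 0 fell in HFD minus NFD, 1 rose and 1 fell in Uro minus HFD, and 5 rose and 0 fell in Uro minus NFD. Abcg8, a subunit of the canalicular sterol pump, was higher with the high-fat diet in both studies, by 1.33 ± 0.27 in MC minus NC and 1.24 ± 0.27 in HFD minus NFD (edgeR QL adjusted p = 0.00343 and 0.00426). Slc51a, a basolateral bile acid exporter subunit, rose in Uro over HFD by 1.13 ± 0.31 (edgeR QL adjusted p = 0.00986), and Atp8b1, a canalicular lipid flippase, fell by 0.99 on the log2 scale (edgeR QL adjusted p = 0.00153).

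Of 21 regulators and scaffolds of these transporters, 0 rose and 3 fell in MC minus NC, 0 and 0 in UB minus MC, 1 and 2 in UB minus NC, 1 and 4 in HFD minus NFD, 1 and 3 in Uro minus HFD, and 1 and 4 in Uro minus NFD. The receptor genes Nr1i2 (PXR) and Nr1h4 (FXR) were not called in any of the 6 comparisons, and Nr1i3 (CAR) only in UB minus NC (0.98 ± 0.22, adjusted p = 0.00824 by edgeR). Ppara, the fatty acid sensor, was lower in HFD than in NFD (-1.09 ± 0.22, adjusted p = 0.00288 by edgeR) and not called in Uro minus HFD (0.37 ± 0.22, adjusted p = 0.232 by edgeR). Pdzk1, a scaffold that holds organic anion carriers at the membrane, fell in MC (-0.68 ± 0.22, adjusted p = 0.0399 by edgeR) and HFD (-1.27 ± 0.29, adjusted p = 0.00628 by edgeR) and was higher in Uro than in HFD (0.83 ± 0.28, adjusted p = 0.0353 by edgeR). Nfe2l2, encoding NRF2, was higher in HFD (1.05 ± 0.22, adjusted p = 0.00360 by edgeR), Ahr was not called in any comparison, and Rdx, which tethers canalicular proteins, was lower in MC (-0.82 ± 0.23, adjusted p = 0.0246 by edgeR) and in Uro than in HFD (-0.65 ± 0.21, adjusted p = 0.0263 by edgeR).

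Target genes of these regulators gave counts that can be read beside the transporters. For CAR and PXR, 2 of 7 tested targets rose in MC minus NC, 1 in UB minus MC, 3 in UB minus NC, and, of 9, 0 in HFD minus NFD and 6 each in Uro minus HFD and Uro minus NFD, with 0 falling in any. Of 12 PPARA targets, 3 rose and 1 fell in MC minus NC, 1 and 1 in UB minus MC, 1 and 0 in UB minus NC, 0 and 4 in HFD minus NFD, 11 and 0 in Uro minus HFD, and 5 and 0 in Uro minus NFD. Slc22a5 is itself a known PPARA target in mice. In Uro minus HFD it differed by 0.53 ± 0.22 and was not called (edgeR QL adjusted p = 0.0735). It was called without HFD replicate 2 (edgeR QL adjusted p = 0.00545), under the replicate block (edgeR QL adjusted p = 0.0407) and on the TPM scale (limma adjusted p = 0.000975). The part of PPARA in the level of Slc22a5 was not tested. NRF2 targets, 11 tested, rose and fell in 2 and 1, 0 and 1, 1 and 0, 3 and 0, 5 and 0, and 7 and 0 cases in the same order of comparisons. Of the AHR targets tested, 4 in the prevention and 5 in the treatment study, 1 rose, Cyp1a2 in Uro minus HFD (1.84 ± 0.37, adjusted p = 0.00107 by edgeR).

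Markers of liver zones and of other cells moved in some of the same comparisons. Of 12 pericentral hepatocyte markers, 7 rose in MC minus NC and 10 in Uro minus HFD with 0 falling, and their summed level ran from 3060 to 3980 CPM in NC, 2776 to 7415 in MC, 1191 to 3308 in HFD and 7531 to 10278 in Uro. Of 12 periportal markers, 9 fell and 0 rose in MC minus NC, in UB minus NC and in HFD minus NFD, and 8 fell and 1 rose in Uro minus NFD. In Uro minus HFD 3 periportal markers rose and 3 fell, and in UB minus MC 0 rose and 1 fell. Pericentral markers rose in 6 cases in UB minus NC and in 8 in Uro minus NFD, with 0 falling. For them 0 rose and 1 fell in HFD minus NFD, and 0 rose and 0 fell in UB minus MC. Hepatocyte markers, 10 tested, rose in 7 cases and fell in 0 in Uro minus HFD, and their summed level was 14650 to 27960 CPM in HFD and 31973 to 51054 in Uro. Their rises and falls were 3 and 1 in MC minus NC, 0 and 1 in UB minus MC, and 0 and 2 in UB minus NC. In HFD minus NFD they were 0 and 2, and in Uro minus NFD 3 and 1. The part of zonation or hepatocyte share in the transporter results was not tested. The defining markers of kidney tubule, which also makes Slco1a1 and Slc22a7, had a summed level of at most 0.688 CPM in any library. Of 6 enterocyte markers, Lct and Sis did not exceed 0.136 CPM in any library, while Alpi reached 3.65 CPM in a Uro library and Vil1 2.16 CPM in an HFD library. Fabp2 ran from 12.1 CPM in an NFD library to 106 CPM in a Uro library, and Apoa4, which mouse liver also makes, held most of the sum. Cholangiocyte markers summed to 45.9 to 446 CPM in HFD against 17.6 to 72.3 in NFD and 39.5 to 222 in Uro. Most of that sum was Spp1 alone, with means of 164 CPM in HFD, 30.9 in NFD and 115 in Uro. Krt19 had means of 2.59, 1.26 and 4.17 CPM and Sox9 of 4.27, 3.72 and 1.51 CPM in the same order. Infiltrating macrophage markers summed to 49.2 to 239 CPM in HFD against 28.5 to 58.9 in NFD and 75.6 to 156 in Uro.

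For each transporter, the genes with the most similar pattern over the 30 libraries were found by the root mean square difference of log2 CPM after centring each gene, among 12957 candidates. For Slco1a1, whose own spread was 1.27, these were Sult2a8 at 0.615 and Susd4 at 0.690. Slco1a4 (spread 0.974) was nearest to Uroc1 at 0.638 and Sall1 at 0.640, Slc22a7 (1.05) to Ces2a at 0.670 and Fetub at 0.728, and Slc22a5 (0.538) to Creb3l3 at 0.304 and Ttc39b at 0.320. Abcc3 (0.698) was nearest to C2cd2 at 0.308 and Cyp2d22 at 0.321, Abcg2 (0.730) to Mgst1 at 0.351 and Bfar at 0.381, and Abcc2 (0.621) to Faf2 at 0.281 and Cers2 at 0.288. Slco1b2 (0.517) was nearest to Met at 0.364 and Amigo2 at 0.373, and Slco2b1 (0.348) to Mbtps1 at 0.213 and Ppp1r37 at 0.231. All genes were compared over the same libraries, which differ in depth and mitochondrial share, and when only the 6 group means were compared, 0 of these 18 genes came up again.

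In the authors' deposited table of calls, Slc22a5, Abcc3 and Abcg2 were up and Slco1a4 was down in MC against NC and in UB against NC. The authors' deposited table had Slco1a1 and Slc22a7 down in HFD against NFD, up in Uro against HFD and down in Uro against NFD, and Slco1a4 down in Uro against NFD. Abcc3 and Abcg2, called higher in Uro by edgeR above, were marked "no", with direction up, against HFD and against NFD in the authors' deposited table, which had 0 of the transporters up in Uro against NFD. Slco1b2, Slco2b1 and Abcc2 were not listed in the authors' deposited table, whose thresholds are not stated.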

How the data were processed

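Poly(A)-selected stranded RNA libraries of 30 livers were sequenced, per the labels' protocols. The tools fastp, HISAT2, StringTie and DESeq2 and the build GRCm39 are named in the submitters' processing notes, and versions and annotation release are not given in the sources used here. Expected counts per gene were deposited by the authors without scaling. The deposited TPM values were scaled by the authors to a common sum, mitochondrial transcripts included. A deposited table gives the authors' calls. Expected counts were rounded and tested in R 4.3.3 with edgeR 4.0.16 (filterByExpr, TMM, robust quasi-likelihood F-test, two-sided, Benjamini-Hochberg over all genes), each study of 15 libraries in its own fit and the interactions in 1 fit of all 30. SE values are log2 fold changes over the square root of F, without sign. The procedure was tested on simulated data. Alternatives used DESeq2 1.42.0, limma 3.58.1 on log2(TPM + 0.1) and other designs, and the alternative that leaves out the library with the highest mitochondrial share of each group was chosen after seeing the data. Mitochondrial shares were set against each other by exact permutation (two-sided), with p adjusted over 6 comparisons. Coordinates are from GENCODE M39. The transporters, gene lists and rule for named genes were chosen with earlier results of these data known. The rule names all 9 transporters, up to 3 genes with the smallest adjusted p of each list, chosen regulators, and the 2 genes most like each transporter. A gene that this rule names is not reported here. Replicate numbers showed no clear pairing of the libraries, and 0 pairs of libraries within a group were identical.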

Additional observations from a re-analysis of the deposited data

Results flagged for a closer look

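Of 54 sets of 5 libraries (9 genes in 6 groups), 4 held a library far from the other 4, and chance flags about 1 in 20. Slco1a1 was at 23.3 CPM in NC replicate 3, below the other NC libraries. Slco2b1 was at 28.9 CPM in UB replicate 1, below the other UB libraries. HFD replicate 2 stood high for Slc22a5, at 28.5 CPM, and for Slc22a7, at 4.02 CPM.

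The effect of diet differed between the studies by the interaction test for 5 transporters, lower in the treatment study by -3.74 for Slco1a1, -2.86 for Slc22a7, -1.81 for Slc22a5, -1.63 for Abcg2 and -1.11 for Abcc3 on the log2 scale (edgeR QL adjusted p = 0.000959, 0.0157, 0.000959, 0.00450 and 0.0491). The effect of UB-NPs differed for 2 transporters, higher in the treatment study by 2.88 for Slco1a1 and 1.26 for Abcg2 (edgeR QL adjusted p = 0.000780 and 0.00918).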

How the results depend on the processing

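Of 1980 values of single transporters under the alternatives, 1778 kept their direction and side of the threshold, 52 changed sign, some of them also losing a call, and of the rest 115 lost a call and 35 gained one. With the covariate of mitochondrial share, transporters called were 3 in MC minus NC, 0 in UB minus NC, 0 in Uro minus HFD, 0 in Uro minus NFD, 3 in the diet interaction and 0 in the UB-NP interaction. Counts over all genes in the same order were 389 and 71 of 13498, 2 and 0 of 14163, and 186 and 0 of 14784. On the TPM scale with limma the transporters called were 1 (Slco1a1) in HFD minus NFD, 8 in Uro minus HFD and 2 in the diet interaction. Of all genes, 1018 of 14163, 7134 of 14163 and 101 of 14784 were called there in the same order. The median gene shifted there by 0.49 in MC minus NC, 0.44 in UB minus MC, 0.93 in UB minus NC, 0.35 in HFD minus NFD, 0.93 in Uro minus HFD and 1.34 in Uro minus NFD. The replicate block called 5 transporters in Uro minus HFD and 4 in Uro minus NFD, with 3366 and 3595 of all 14163 genes called. Same-numbered libraries deviated together in 1 of 15 pairs of the prevention study and 2 of 15 of the treatment study (r over 0.1, range -0.05 to 0.13 and -0.20 to 0.16). No clear pairing by number was seen, but this check cannot exclude a weak one. Leaving out the library with the highest mitochondrial share of each group, chosen after seeing the data, called 1 transporter in UB minus MC, Slco1a1. Of all 13653 genes, 64 were called there.

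Leaving out 1 library in turn, the transporters called ranged from 4 to 6 in MC minus NC, 0 to 1 in UB minus MC, 4 to 5 in UB minus NC, 2 to 3 in HFD minus NFD, 1 to 5 in Uro minus HFD, 4 to 8 in Uro minus NFD, 4 to 5 in the diet interaction and 2 to 5 in the UB-NP interaction. The difference in mitochondrial share ranged from -20.8 to -13.2 points in MC minus NC and from -6.32 to 0.866 points in HFD minus NFD.

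Sign changes were mostly of transporters that were not called, and the cause was not tested. With the covariate they were Abcc3 (-0.026) and Slco1a4 (0.14) in UB minus MC, Slc22a7 (-0.61) in UB minus NC, Abcc3 (-0.43), Abcc2 (-0.86), Abcg2 (-0.23), Slco2b1 (-0.79) and Slc22a7 (-1.57) in Uro minus HFD, Slc22a5 (-0.41), Abcc3 (-0.38), Abcc2 (-0.60), Abcg2 (-0.0211) and Slco2b1 (-0.50) in Uro minus NFD, and Abcc3 (-0.0842), Slco2b1 (-0.0532) and Slc22a7 (-0.25) in the UB-NP interaction. On the TPM scale they were Slc22a5 (0.45), Abcc2 (0.21), Abcg2 (0.082), Slco1a4 (0.44) and Slco2b1 (0.40) in UB minus MC, Slco1a1 (0.60) in UB minus NC, Slco1a4 (0.18) in Uro minus HFD, and Slco1a4 (0.0423), Slco1a1 (0.19) and Slc22a7 (0.63) in Uro minus NFD. Slco1a4 in UB minus MC was 0.0033 under the replicate block. Slc22a5 in Uro minus NFD was -0.0124 with DESeq2 size factors, -0.0126 with the DESeq2 test and -0.0376 in 1 fit of 30. Without the highest mitochondrial shares, Slc22a5 was at 0.0755, Slco1b2 at -0.19 and Slco1a4 at 0.35 in UB minus MC, and Slc22a5 at -0.11 in Uro minus NFD.

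Leaving out 1 library, values that changed sign ranged from -0.13 to 0.11 for Slc22a5, -0.083 to 0.195 for Slco1b2, -0.33 to 0.26 for Slco1a4 and -0.0217 to 0.158 for Abcc3 in UB minus MC. They ranged from -0.17 to 0.30 for Slc22a7 in UB minus NC, -0.10 to 0.37 for Abcc3 in HFD minus NFD, -0.0647 to 0.109 for Slc22a5 in Uro minus NFD and -0.40 to 0.043 for Slco1b2 in the diet interaction.

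Counts over all genes moved by more than 1.5 times with the covariate, from 1645 to 389 in MC minus NC, 1053 to 71 in UB minus NC, 3836 to 2 in Uro minus HFD, 4027 to 0 in Uro minus NFD, 801 to 186 in the diet interaction and 1818 to 0 in the UB-NP interaction. On the TPM scale they were 2525 in MC minus NC, 27 in UB minus MC, 7612 in UB minus NC, 1018 against 1863 in HFD minus NFD, 7134 in Uro minus HFD, 10644 in Uro minus NFD and 101 in the diet interaction. In UB minus MC, 82 genes became 228 with the DESeq2 test and 129 without the filter on low counts, and the diet interaction had 1227 without the highest mitochondrial shares. The other alternatives that kept all libraries, including fits without mitochondrial genes, stayed within 1.5 times for these counts. Leaving out 1 library, the counts ranged from 923 (without NC replicate 2) to 2315 in MC minus NC, with 1051 without MC replicate 3, and from 1108 to 2341 in HFD minus NFD, with 1108 and 1178 without HFD replicates 5 and 4. In UB minus MC they ranged from 20 to 109, under 82 by over 1.5 times without any of MC replicates 2 and 3 and UB replicates 1 to 4. In UB minus NC they ranged from 550 to 1589, moving that far without NC replicate 1, 2, 3 or 5 or UB replicate 3, 4 or 5. In the diet interaction they ranged from 495 to 1383, moving that far without MC replicate 3, 4 or 5, NFD replicate 2 or 5 or HFD replicate 2, 4 or 5. They ranged from 3023 to 4537 in Uro minus HFD, 3216 to 4222 in Uro minus NFD and 1404 to 2182 in the UB-NP interaction. Slc22a7 had as few as 0.458 CPM in a library, a level at which counting error weighs more.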
